A study of Mus musculus with 8 samples.

Results

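Nuclear pore and nuclear transport genes were measured by RNA sequencing in 3 normal mouse brains and 5 mouse glioblastomas. The members were chosen by symbol: the numbered Nup, Kpna, Ipo, Xpo and Tnpo families, Xpot and Kpnb1, and the named genes Tpr, Ran, Rangap1, Ranbp1, Ranbp2, Rcc1, Cse1l, Ndc1, Pom121, Sec13 and Seh1l. This gave 55 of the 23523 genes in the deposited table. The glioblastomas, malignant brain tumours with glial features, had been induced with a lentiviral vector carrying HrasG12V, an activated Ras protein, together with an shRNA against p53. Tumours were taken at the clinical endpoint, and the GFP-positive tissue was freed of normal brain under a dissecting microscope. The brains are labelled only as normal mouse brain. Their region, like the strain, age and sex of the animals, the cells infected and the promoters of the vector, is not given in the sources. Nor do the labels tie each library to its own animal; p-values here measure the spread between libraries.

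The nuclear pore complex is a ring of nucleoporins set in the nuclear envelope, through which proteins and RNA pass between cytoplasm and nucleus. An outer ring and an inner ring form its frame, membrane proteins hold it in the envelope, a central channel filled with flexible repeats forms the barrier, and filaments and a basket extend to either side. Cargo crosses the channel bound to importins or exportins, whose loading and unloading follow the guanine nucleotide state of the small GTPase Ran. Pores are long lived in neurons, while dividing cells must build pores for each new nucleus.

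Of the 55 members, 54 had enough fragments to be tested, and 35 were higher and 11 lower in glioblastoma by edgeR's quasi-likelihood test at an adjusted p of 0.05. Among all 14641 genes tested, 37.1% were higher and 33.9% lower (71% in either direction). At least a 2-fold rise was called for 25 members and at least a 2-fold fall for 2, against 27.4% and 25.8% of all genes. Every tumour lay above every brain for 34 members and below for 11, against 36.1% and 34.5% of all genes tested, and the groups overlapped for the other 9. The median log2 fold change (tumour over brain) was 0.88 for the members and 0.06 for all genes. In bulk tissue a change in the share of a cell type and a change in RNA per cell cannot be told apart.

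The plot of fold changes by role sets the groups side by side. The 25 pore proteins of the 6 structural groups comprised 20 that rose (80%), 2 that fell (8%) and 3 that did not pass, with a median log2 fold change of 1.25. The 24 transport receptors included 23 that were tested, of which 10 rose (43.5%), 8 fell (34.8%) and 5 did not pass, with a median of 0.19. The receptors' shares are near those of all genes tested (37.1% higher, 33.9% lower), and so are no result about receptors as a group. The difference between pore proteins and receptors was not tested. The summed FPKM (fragments per kilobase of transcript and per 1000000 fragments, which compares genes per length) of the pore proteins was 347 ± 8.70 (SD, n = 3) in brains and 818 ± 142 (SD, n = 5) in tumours.

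**Figure D1:**
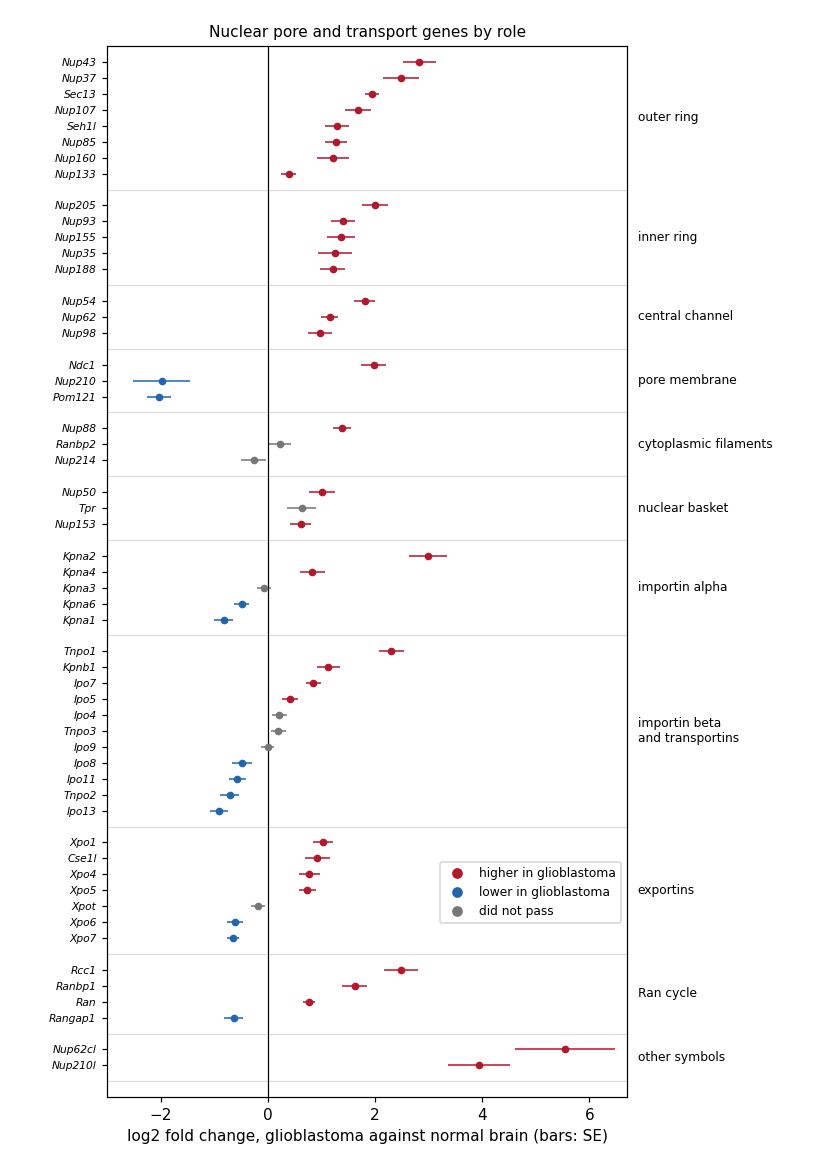
Log2 fold change (tumour over brain) of each of the 54 tested members on the horizontal axis, with bars of 1 SE, grouped by role; red points were called higher, blue points lower and grey points did not pass. All 8 outer ring and 5 inner ring members lie to the right of 0, while importins and exportins lie on both sides.

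The libraries held 5490351 to 15564280 fragments. Hras rose to 4.15 times its brain level, and Trp53 read 5.62 ± 1.38 CPM (fragments per 1000000; SD, n = 3) in brains and 4.07 ± 1.51 CPM (SD, n = 5) in tumours, with an adjusted p of 0.262. Marker genes of other cell types moved with the groups. For the counts that follow, the shares of all genes tested were 37.1% higher and 33.9% lower. Of the dividing-cell markers 10 of 10 were higher, and their summed level was 21.4 to 28.6 CPM in brains and 643 to 1680 CPM in tumours. Ccnb1 and Aurkb, among those markers, were at 0 in at least 1 brain. Neuronal markers fell in 4 of 6 cases (summed 5716 to 6893 CPM in brains, 497 to 919 CPM in tumours), oligodendrocyte markers in 5 of 5 (2890 to 5615 against 219.8 to 831 CPM, brain 1 the highest) and astrocyte markers in 2 of 4 (3565 to 3875 against 567 to 932 CPM). Slc1a2 made up most of the astrocyte sum in brains, with a mean of 3186 CPM there and 193 CPM in tumours. The astrocyte markers Gja1 and Aldh1l1 did not pass, with log2 fold changes of 0.49 and 0.18. Snap25 and Syt1 made up most of the neuronal sum in brains (means 2806 and 2208 CPM), and Nefl and Stmn2 did not pass. Macrophage and microglia markers rose in 4 of 5 (229.5 to 236.5 against 687 to 961 CPM) and endothelial markers in 3 of 3 (41.8 to 51.8 against 92.8 to 259.6 CPM), and no marker of these 5 lists was at 0 in any library. Their part in the results for the pore and transport genes was not tested.

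Tumour 4 stood closest to the brains for most members that rose. It was the lowest of the 5 tumours for 31 of the 35 members that rose (88.6%), against 56.7% of all genes called higher. Of the 11 members that fell, it was the lowest, farthest from the brains, for 6 (54.5%), against 19.0% of all genes called lower. It was the highest tumour for 4 of the 11 (36.4%), against 46.7% of all genes called lower. Tumour 4 was thus the lowest tumour for 43 of the 54 tested members, whether they rose or not. The dividing-cell markers of tumour 4 were also the lowest, at 643 CPM. Tumour 3 was the highest for 21 of the 35 (60%), against 29.9% of all genes called higher, and held the highest dividing-cell sum, at 1680 CPM. A link between the dividing-cell level and the order of the tumours was not tested. Members took 0.504% to 0.524% of all fragments in brains and 0.655% to 0.895% in tumours, the lowest share being that of tumour 4. Tumours also varied more: the SD of log2 CPM was larger in tumours than in brains for 52 of 54 members, against 85% of all genes. Its median was 0.096 in brains and 0.34 in tumours for the members, and 0.154 and 0.379 for all genes.

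**Figure D2:**
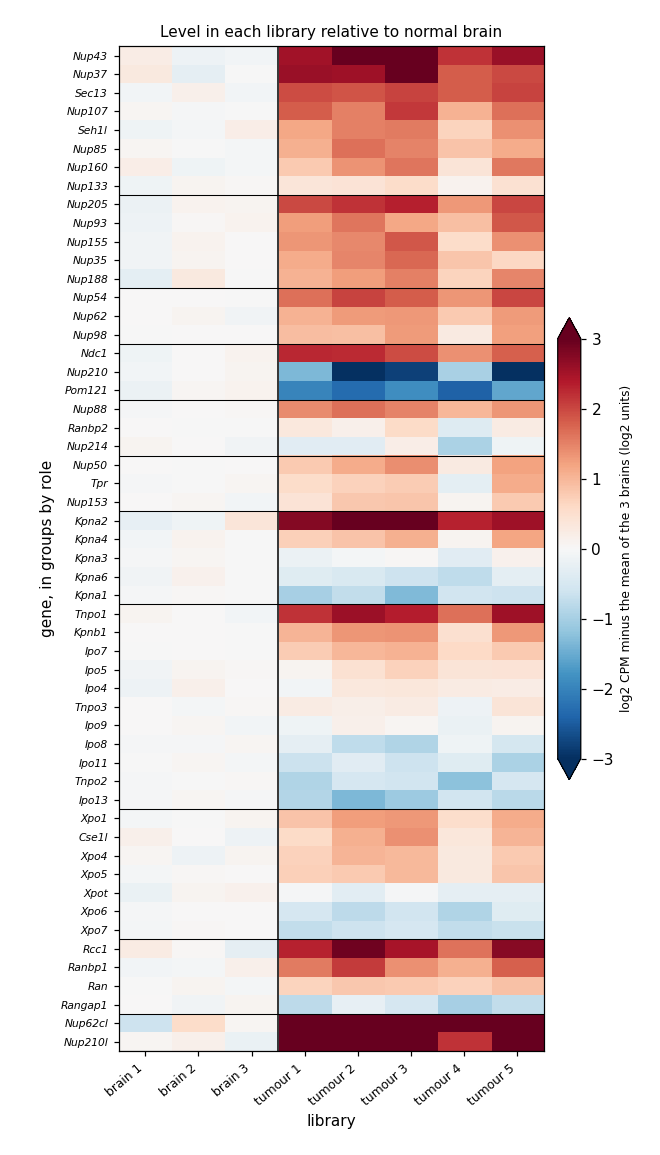
Level of each tested member (rows, grouped by role) in each library (columns), as log2 CPM minus the mean of the 3 brains, red above and blue below; colours end at 3 log2 units in each direction. Tumour 4 is the palest of the tumour columns in most red rows, and Nup210 and Pom121 are the darkest blue rows.

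Promoter sequences were examined because many members rose together. RefSeq (GRCm38.p6) windows were matched for 44 of the 55 members, and the 250 bases before each start were searched on both strands for words chosen after the values were known. The palindrome GCGCATGCGC, the word bound by nuclear respiratory factor 1, a regulator of housekeeping and mitochondrial genes, occurred in 5 of the 44 members (11.4%). It occurred in 0.782% of all 32851 windows of that length and in 1.75% of the 11458 tested genes that had a window. All shares of genes given for this and the other words count only genes with a window. The 5 members were Nup107, Nup62, Nup50, Ran and Xpo5, all called higher in glioblastoma, as were 28 of the 44 members with a window. Across the 4243 genes called higher that had a window, 1.67% held the word, and across the 3835 called lower, 1.54%. These stretches are shown because they hold every copy of it found among the members, in capitals, each read 5′ to 3′ on the strand of its gene.
Nup107: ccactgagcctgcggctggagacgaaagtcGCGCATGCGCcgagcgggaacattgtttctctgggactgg
Nup62: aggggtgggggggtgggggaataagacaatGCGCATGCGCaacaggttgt
Nup50: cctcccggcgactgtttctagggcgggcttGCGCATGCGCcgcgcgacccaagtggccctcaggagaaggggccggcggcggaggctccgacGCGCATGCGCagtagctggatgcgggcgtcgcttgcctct
Ran: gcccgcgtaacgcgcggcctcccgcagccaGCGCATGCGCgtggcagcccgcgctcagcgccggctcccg
Xpo5: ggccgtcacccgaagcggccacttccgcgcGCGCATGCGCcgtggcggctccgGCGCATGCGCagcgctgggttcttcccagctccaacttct
The stretches lie at chr10:117792731-117792800 on the minus strand (Nup107), and on the plus strand at chr7:44816038-44816087 (Nup62), chr15:84923231-84923362 (Nup50), chr5:129019921-129019990 (Ran) and chr17:46202696-46202788 (Xpo5). Nup50 and Xpo5 each hold 2 copies. A match to a word is a description of the letters and not evidence of binding.

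No searched word contained another. Of the other words, 3 forms of the E2F site (TTTCCCGC, TTTGGCGC and TTTCGCGC, bound by the cell cycle factors of that family) were found in 2 members. They were Ranbp1, which rose, and Nup210, which fell, and the words occurred in 1.53% of all windows and 3.28% of tested genes. Both hold TTTCCCGC, in capitals below, and are shown because the same word stands before 2 genes that changed in opposite directions.
Ranbp1: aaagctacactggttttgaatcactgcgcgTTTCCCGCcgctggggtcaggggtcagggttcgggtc
Nup210: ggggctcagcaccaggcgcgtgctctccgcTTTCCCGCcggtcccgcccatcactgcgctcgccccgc
These minus-strand stretches lie at chr16:18248695-18248761 and chr6:91116865-91116932. The CCAAT box was present in 21 of the 44 members (47.7%) and 40.2% of tested genes. TTTGAA, the core of the cell cycle homology region, was present in 13 members (29.5%), 12.8% of tested genes and 16.0% of all windows. It was present in 28.6% of members called higher and 25.0% of those called lower. TGACGTCA, the cAMP response element, was present in 2 members and 3.01% of tested genes.

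The outer ring, the Y-shaped scaffold that is recruited to chromatin when pores form after mitosis, rose in full. All 8 members were higher, against 37.1% of all genes tested, with a median log2 fold change of 1.48. Nup43, a small propeller subunit of the scaffold, read 4.74, 3.61 and 3.82 CPM in brains 1 to 3 and 24.0, 38.8, 36.8, 18.9 and 25.2 CPM in tumours 1 to 5. The groups did not overlap, and tumours 2 and 3 were the highest. Its log2 fold change was 2.82 ± 0.30 (SE), with an adjusted p of 5.13e-05. Nup37, another propeller subunit, read 6.43, 4.33 and 5.18 CPM in the brains and 32.9, 31.6, 44.1, 19.1 and 21.3 CPM in the tumours. Here tumour 3 was the highest and tumours 4 and 5 the lowest, still well above the brains, and the log2 fold change was 2.48 ± 0.33 (adjusted p = 0.000174). Sec13, which serves both the outer ring and the COPII coat of secretory vesicles, read 54.1, 63.9 and 54.1 CPM in the brains and 221, 214, 234, 200.5 and 233 CPM in the tumours. It was the most even of these rises, with all 5 tumours close together, and its log2 fold change was 1.94 ± 0.13 (adjusted p = 3.83e-06). Per length, Sec13 went from the ninth to the highest mean level of all members, from 49.4 ± 4.96 FPKM in brains to 188 ± 12.5 FPKM in tumours (mean ± SD). Ranbp1 was above it in tumour 2 (261.7 against 187.5 FPKM) and tumour 5 (206.7 against 196.4 FPKM).

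Nup107, the core subunit for which the complex is named and whose promoter stretch is printed above, rose by 1.68 ± 0.24 on the log2 scale. The scaffold subunits Seh1l (1.28 ± 0.22), Nup85 (1.27 ± 0.20) and Nup160 (1.21 ± 0.30) rose by about the same amount as each other. Nup133, at the end of the stem of the Y, read 48.5, 56.4 and 54.4 CPM in the brains and 68.1, 70.7, 77.3, 57.4 and 73.4 CPM in the tumours. All tumours were above all brains, but tumour 4 only just, and the log2 fold change was 0.38 ± 0.14 (adjusted p = 0.03). That call was lost in 5 of the 17 alternative analyses, over which its adjusted p ranged from 0.00406 to 0.122. The summed outer ring level of the tumours was 3.28 times that of the brains on the FPKM scale and 2.74 times on the CPM scale. For the inner ring these ratios were 3.00 and 3.09. Sec13 alone made up 49.4 of the outer ring's mean of 110.7 FPKM in brains and 188.5 of its 363.5 FPKM in tumours.

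The inner ring, which lines the pore and anchors the channel proteins, also rose in full. Here 5 of 5 members were higher, against 37.1% of all genes tested, with a median log2 fold change of 1.37. Nup205, a large arch-shaped scaffold protein, read 59.5, 72.4 and 71.7 CPM in the brains and 267, 306, 341, 168 and 272 CPM in the tumours. Tumour 4 was the lowest tumour and still more than double the highest brain. This gave a log2 fold change of 1.99 ± 0.24 (adjusted p = 8.83e-05). Nup93, the linker that holds the inner ring together, read 19.4, 22.2 and 23.2 CPM in the brains and 51.3, 66.2, 48.8, 40.7 and 78.5 CPM in the tumours. Tumours 2 and 5 were the highest and no tumour reached down to the brains, and the log2 fold change was 1.40 ± 0.23 (adjusted p = 0.000634). Nup155 (1.36 ± 0.27), Nup35 (1.25 ± 0.32) and Nup188 (1.20 ± 0.23), which complete the ring, had log2 fold changes within a narrow range. For Nup35 the log2 value was 0.77 with limma on log2(FPKM + 1), which understates changes of low genes.

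The 3 central channel members, whose phenylalanine-glycine repeats form the barrier, all rose, against 37.1% of all genes tested. Nup54 read 11.7, 11.7 and 11.6 CPM in the brains and 37.2, 48.0, 41.8, 29.8 and 47.4 CPM in the tumours. The brains were nearly identical, and every tumour was more than double their level. On the log2 scale the change was 1.81 ± 0.19 (adjusted p = 5.03e-05). Nup62, the partner of Nup54 in the channel trimer and another gene with the palindrome in its promoter, read 28.2, 29.6 and 25.8 CPM in the brains and 57.2, 67.7, 69.3, 48.4 and 67.4 CPM in the tumours. Tumour 4 was again the lowest and the groups did not overlap, with a log2 fold change of 1.15 ± 0.16 (adjusted p = 0.00022). Nup98, whose transcript also encodes the outer ring protein Nup96, read 63.3, 65.1 and 64.2 CPM in the brains and 122, 121, 157, 77.2 and 151 CPM in the tumours. Tumour 4 lay little above the brains and tumours 3 and 5 were the highest, and the log2 fold change was 0.97 ± 0.23 (adjusted p = 0.00431). Nup58, the remaining protein of the trimer, is listed under the older symbol Nupl1, which the choice by symbol does not match. Nupl1 had a log2 fold change of 0.18 ± 0.20 (adjusted p = 0.439), and Nupl2, the older symbol of Nup42, one of 0.068 ± 0.18 (adjusted p = 0.753).

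The 3 pore membrane proteins split, with 1 higher and 2 lower, against 37.1% and 33.9% of all genes tested. Ndc1, a transmembrane protein needed to insert pores into the envelope, read 16.2, 18.0 and 19.1 CPM in the brains and 86.4, 84.6, 70.1, 46.2 and 61.8 CPM in the tumours. All tumours were above the brains, tumours 1 and 2 most, and the log2 fold change was 1.97 ± 0.23 (adjusted p = 8.24e-05). Nup210, a membrane glycoprotein of the pore lumen, read 39.4, 42.3 and 44.0 CPM in the brains and 16.3, 4.33, 5.80, 21.2 and 4.69 CPM in the tumours. Tumours 2, 3 and 5 were far below the brains, tumours 1 and 4 less so, and no tumour reached the brains. The change came to a log2 value of -1.99 ± 0.53 (adjusted p = 0.00841). Pom121, a membrane protein that takes part in pore assembly, read 24.4, 28.9 and 29.6 CPM in the brains and 6.83, 5.41, 7.44, 4.89 and 9.13 CPM in the tumours. All 5 tumours were low, and tumour 4 was the lowest, farthest from the brains. The log2 fold change was -2.03 ± 0.23 (adjusted p = 6.1e-05), and it was -1.44 with limma on log2(FPKM + 1). Nup210 and Pom121 were the 2 members with at least a 2-fold fall.

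The level of Ndc1 relative to Nup210, on the FPKM scale, was 1.19, 1.23 and 1.25 in the 3 brains and 15.3, 56.2, 34.8, 6.27 and 37.9 in the 5 tumours. The ratio was therefore even among brains and spread widely among tumours, lowest in tumour 4. Nup210l, a paralog of Nup210 best known from the testis, moved the other way: it read 1.18, 1.30 and 0.954 CPM in the brains and 13.8, 27.8, 26.2, 5.94 and 15.6 CPM in the tumours. Brain levels rested on 23 fragments in all, and tumour 4 was the lowest tumour. Nup210l passed the filter on low counts through the tumours alone, so it could not have been called lower. The fitted log2 change was 3.94 ± 0.58 (adjusted p = 0.000334), and 1.67 with limma on log2(FPKM + 1). Nup62cl, a gene named for its likeness to the end of Nup62, read 0, 0.289 and 0.136 CPM in the brains and 11.5, 3.25, 14.5, 3.61 and 5.01 CPM in the tumours. All tumours were above all brains, but these levels rest on 3 fragments over the 3 brains, against 331 over the 5 tumours. At equal depth the tumour-to-brain ratio was 45.0, with a 95% interval for counting error alone of 15.4 to 218 (adjusted p = 0.000683 in edgeR). Brain 2 held most of those brain fragments, and the fitted log2 fold change went from 5.54 to 6.41 without it and to 2.72 with limma on log2(FPKM + 1). With at least 5 CPM required in 3 libraries, Nup62cl was not tested. In the main analysis it too passed the filter on low counts through the tumours alone.

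The cytoplasmic filaments, where export complexes are taken apart, changed in 1 of 3 members, against 71% of all genes tested in either direction. Nup88, which is held at the cytoplasmic face together with Nup214, read 78.7, 81.2 and 82.8 CPM in the brains and 215, 254, 226, 160.3 and 202 CPM in the tumours. The groups were far apart, and the log2 fold change was 1.39 ± 0.16 (adjusted p = 8.75e-05). Ranbp2, the largest nucleoporin, a SUMO ligase that docks Rangap1 at the filaments, read 551, 544 and 539 CPM in the brains and 683, 609, 814, 417 and 651 CPM in the tumours. Tumour 4 was below all brains and the other 4 tumours above them. In log2 units the difference was 0.22 ± 0.20 (adjusted p = 0.352), with a 95% interval of -0.28 to 0.71. Without tumour 4 it was 0.35 and passed the test (adjusted p = 0.0299, the lowest of a range up to 0.588 over the alternatives). Nup214, the partner of Nup88, read 38.6, 36.5 and 33.8 CPM in the brains and 28.4, 28.5, 41.8, 18.8 and 33.2 CPM in the tumours. The groups overlapped, tumour 3 being above all brains and tumour 4 the lowest, and the log2 fold change was -0.27 ± 0.23 (adjusted p = 0.326, 95% interval -0.84 to 0.30).

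The nuclear basket, which reaches into the nucleus and receives messenger RNA, had 2 of 3 members higher, against 37.1% of all genes tested. Nup50, a mobile basket protein that helps release cargo from importin alpha and carries 2 copies of the palindrome in its promoter, read 46.9, 46.5 and 47.0 CPM in the brains and 81.1, 102, 124, 56.1 and 108 CPM in the tumours. Brains were nearly identical, and tumour 4 was the closest to them. Its log2 fold change was 1.01 ± 0.25 (adjusted p = 0.00538). Nup153, which ties the basket to the pore, read 99.1, 104 and 94.1 CPM in the brains and 131, 172, 176, 104 and 170.5 CPM in the tumours. Tumour 4 just cleared the highest brain. This gave a log2 fold change of 0.61 ± 0.19 (adjusted p = 0.0197), and leaving out any 1 of the 3 brains took the adjusted p to between 0.0502 and 0.069 (range over all alternatives 0.00096 to 0.069). Tpr, the coiled-coil protein of the basket's filaments, read 253, 257 and 268 CPM in the brains and 378, 420, 441, 211 and 559 CPM in the tumours. Tumour 4 was below the brains and the other 4 tumours above. On the log2 scale the change was 0.63 ± 0.27 (adjusted p = 0.0646). Without tumour 4 it was 0.80 and passed (adjusted p = 0.000965), and over all alternatives the adjusted p ranged from that value to 0.15, with 5 of 17 passing.

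**Figure D3:**
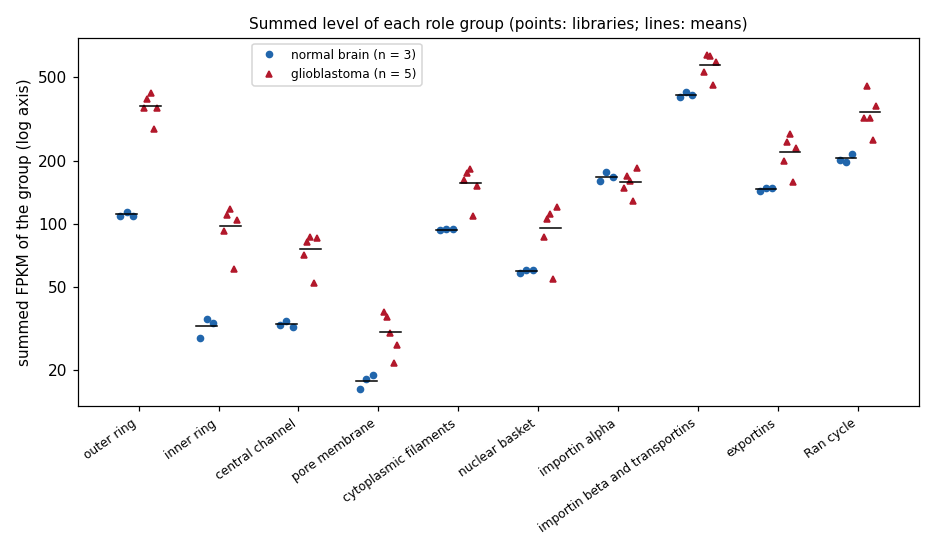
Summed FPKM of the members of 10 role groups (vertical log axis; Nup62cl and Nup210l are not shown) in each brain (blue circles) and tumour (red triangles), with horizontal lines at the means. The tumours lie far above the brains in the outer ring (ratio of means 3.28) and inner ring (3.00), and importin alpha is the group shown whose mean is lower in tumours (0.942).

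The importin alpha adaptors, which bind the classical nuclear localization signal, had 5 tested members, of which 2 rose (40%) and 2 fell (40%), against 37.1% and 33.9% of all genes tested. Kpna2, an adaptor typical of proliferating and stem cells, read 1.18, 1.30 and 1.91 CPM in the brains and 11.0, 16.8, 14.0, 8.04 and 9.53 CPM in the tumours. All tumours were above all brains, tumours 2 and 3 the highest. The change came to a log2 value of 2.99 ± 0.35 (adjusted p = 8.44e-05), and 1.98 with limma on log2(FPKM + 1). The brains held 30 fragments in all, and RefSeq lists a pseudogene, Kpna2-ps, with which reads could be shared, so this level is uncertain. Kpna2 also passed the filter on low counts through the tumours alone, so it could not have been called lower. Kpna4, an adaptor whose known cargoes include NF-kappaB, read 112, 128 and 117 CPM in the brains and 195, 216, 249.9, 126 and 272 CPM in the tumours. Tumour 4 lay within the range of the brains and the other tumours above. The log2 fold change was 0.83 ± 0.24 (adjusted p = 0.0122).

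Kpna1, an adaptor with known roles in neurons, read 266, 282 and 272 CPM in the brains and 138, 164, 109, 184 and 179 CPM in the tumours. Every tumour was below every brain, tumour 3 the lowest. The fitted log2 change was -0.82 ± 0.18 (adjusted p = 0.00277). Kpna6, from the same subfamily as Kpna1, read 138, 162 and 148 CPM in the brains and 116, 109, 97.3, 88.1 and 122 CPM in the tumours. The groups did not overlap, and the log2 fold change was -0.49 ± 0.14 (adjusted p = 0.0115). Without brain 2 its adjusted p was 0.0558, the highest of a range from 0.00368. Kpna3, the close relative of Kpna4, did not pass: it read 167, 179.6 and 171 CPM in the brains and 154, 166, 177, 135 and 189.7 CPM in the tumours. The ranges overlapped, with a log2 fold change of -0.072 ± 0.14 (adjusted p = 0.647, 95% interval -0.41 to 0.26). Its direction turned with the scaling, to 0.044 with upper quartile factors and 0.059 with library size alone. Kpna7, an adaptor of the egg and early embryo, had 0 fragments over the brains and 8 over the tumours, which is not distinguishable at this depth from the limit of 3 fragments set by a count of 0.

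Per length, the order of the means within the adaptors changed. In brains Kpna1 was the highest, at 67.8 ± 2.24 FPKM, followed by Kpna3 at 41.2 ± 1.62 and Kpna4 at 32.0 ± 2.25 FPKM (mean ± SD). In tumours Kpna4 had the highest mean, at 56.5 ± 15.1 FPKM, while Kpna3 at 38.9 ± 5.03 and Kpna1 at 38.0 ± 7.41 FPKM lay within each other's spread. Tumour 4 was an exception: Kpna1 was the highest there, at 44.4 FPKM, with Kpna4 at 33.0 and Kpna3 at 31.5 FPKM. Kpna2 remained the lowest of the 5, at 0.755 ± 0.203 FPKM in brains and 6.10 ± 1.91 FPKM in tumours. The FPKM ratio of Kpna2 to Kpna1 was 0.0111 ± 0.00298 in brains and 0.169 ± 0.0722 in tumours (SD).

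The 11 importin beta family carriers and transportins gave 4 that rose (36.4%), 4 that fell (36.4%) and 3 that did not pass, shares near the 37.1% and 33.9% of all genes tested. Tnpo1, transportin 1, which imports RNA-binding proteins with a proline-tyrosine signal, read 87.1, 84.1 and 77.8 CPM in the brains and 375, 493, 427, 259 and 488 CPM in the tumours. The tumours were far above the brains without overlap, tumour 4 being the lowest. In log2 units the difference was 2.30 ± 0.23 (adjusted p = 3.58e-05), though the deposited quantification status was FAIL for this gene in tumours 4 and 5. Tnpo2, its close paralog, moved the other way: it read 241, 247 and 254 CPM in the brains and 133, 175, 166, 106 and 174 CPM in the tumours. Every tumour was below every brain, with tumours 1 and 4 the lowest. Its log2 fold change was -0.72 ± 0.18 (adjusted p = 0.00617). The FPKM ratio of Tnpo1 to Tnpo2 was 0.324, 0.306 and 0.276 in the brains and 2.54, 2.54, 2.32, 2.21 and 2.52 in the tumours. Tnpo2 was thus the higher paralog in each brain and Tnpo1 in each tumour, and this ratio varied little within either group. Because the paralogs are alike in sequence, reads shared between them could shift their levels.

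Kpnb1, importin beta itself, the carrier that works with importin alpha, read 310.2, 314 and 306 CPM in the brains and 633, 778, 785, 429.9 and 764 CPM in the tumours. Brains were nearly identical and tumour 4 was the lowest tumour. This gave a log2 fold change of 1.13 ± 0.21 (adjusted p = 0.00135). Ipo7, a carrier of ribosomal proteins and histones, read 224, 228 and 225 CPM in the brains and 382, 448, 464, 342 and 392 CPM in the tumours. The groups were clearly apart, with a log2 fold change of 0.85 ± 0.14 (adjusted p = 0.000605). At 73.3 ± 0.896 FPKM in brains and 131 ± 17.8 FPKM in tumours it was the highest importin in both groups. Its paralog Ipo8 read 119.6, 120.3 and 128 CPM in the brains and 102, 72.0, 65.8, 112 and 85.7 CPM in the tumours. All tumours were below the brains, tumour 4 only a little. The log2 fold change of Ipo8 was -0.49 ± 0.19 (adjusted p = 0.0405), a call lost in 9 of the 17 alternatives (adjusted p from 0.00839 to 0.188). These included leaving out any brain or any of tumours 2, 3 and 5.

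Ipo13, a carrier that works in both directions, read 59.0, 62.8 and 58.9 CPM in the brains and 32.4, 23.6, 28.4, 40.6 and 34.3 CPM in the tumours. Tumour 2 was the lowest and tumour 4 the highest tumour, all below the brains, and the log2 fold change was -0.92 ± 0.17 (adjusted p = 0.00144). Ipo11, which imports ubiquitin-conjugating enzymes, fell, with a log2 fold change of -0.57 ± 0.16 (adjusted p = 0.00931). Ipo5, another carrier of ribosomal proteins and histones, rose by 0.41 ± 0.15 (adjusted p = 0.0361). That call was lost in 7 of the 17 alternatives, with adjusted p from 0.00605 to 0.131, among them leaving out any brain or any of tumours 2, 3 and 5. The histone carrier Ipo4 had a log2 fold change of 0.21 ± 0.14, and Tnpo3, which imports serine- and arginine-rich splicing factors, one of 0.19 ± 0.14; neither passed. Library size scaling brought both past the threshold, and Tnpo3 also passed without tumour 4. Ipo9 had a log2 fold change of -0.0059 ± 0.13, with a 95% interval of -0.31 to 0.30.

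**Figure D4:**
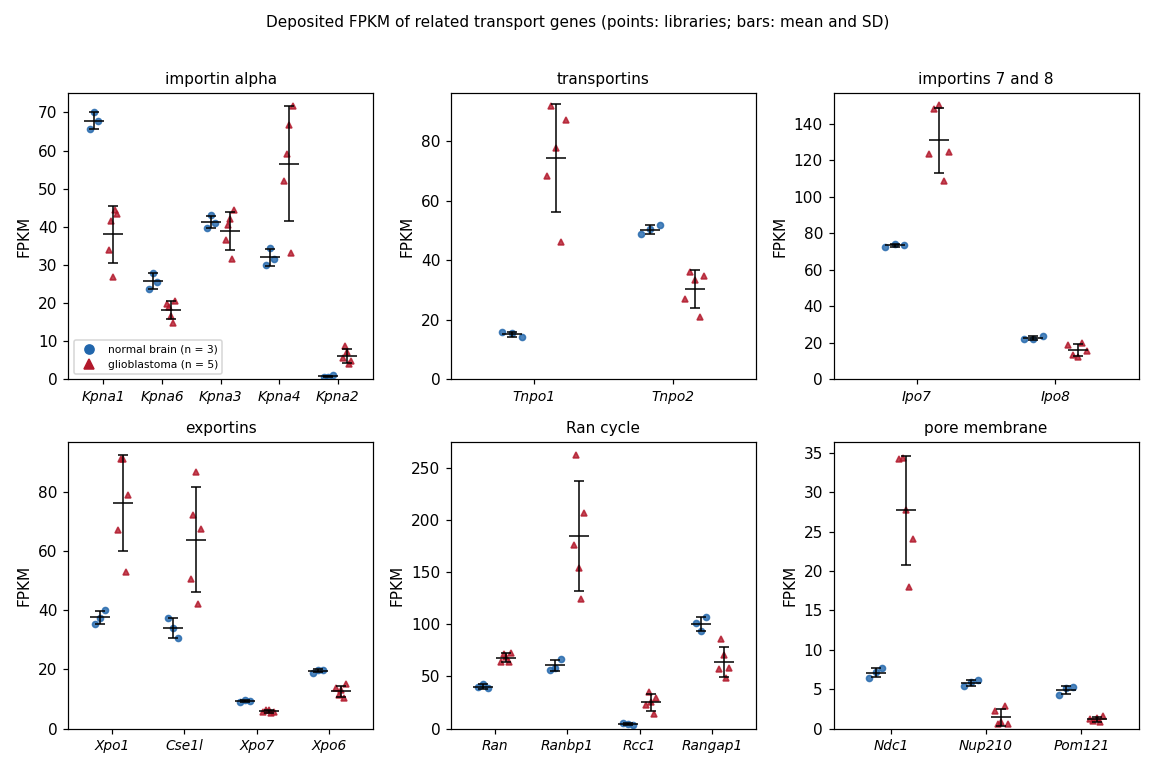
Deposited FPKM (vertical axes, from 0) of related transport genes in brains (blue circles) and tumours (red triangles), with bars for mean and SD. Tnpo1 and Tnpo2 exchange order between the groups, Ipo7 rises while Ipo8 falls, and Rangap1 falls while Ran, Ranbp1 and Rcc1 rise.

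Of the 7 exportins 4 rose (57.1%), 2 fell (28.6%) and 1 did not pass, against 37.1% higher and 33.9% lower among all genes tested. Xpo1, the exporter of proteins with a leucine-rich export signal and the target of the drug leptomycin B, read 180, 186 and 201 CPM in the brains and 339.5, 447, 462, 274 and 408 CPM in the tumours. All tumours were above the brains, tumour 4 the lowest. On the log2 scale the change was 1.03 ± 0.19 (adjusted p = 0.00125). Cse1l, which returns importin alpha to the cytoplasm, read 134, 122 and 109.7 CPM in the brains and 182, 255, 313, 155 and 248 CPM in the tumours. Tumour 3 was the highest and tumour 4 the lowest, above the brains, and the log2 fold change was 0.92 ± 0.24 (adjusted p = 0.00704). Xpo5, the exporter of precursor microRNAs, whose promoter stretch holds 2 copies of the palindrome, rose by 0.73 ± 0.16 on the log2 scale, and Xpo4, an exporter of the translation factor eIF5A, by 0.77 ± 0.19.

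Xpo7, an exporter abundant in maturing red cells, read 139.9, 149 and 146 CPM in the brains and 86.9, 94.3, 102, 86.2 and 90.2 CPM in the tumours. The tumours lay close together and below every brain. The change came to a log2 value of -0.66 ± 0.11 (adjusted p = 0.000604). Xpo6, the exporter of actin, read 85.3, 88.9 and 88.5 CPM in the brains and 61.7, 50.3, 58.4, 46.9 and 68.4 CPM in the tumours. No tumour reached the brains, and the log2 fold change was -0.62 ± 0.15 (adjusted p = 0.0046). Xpot, which exports transfer RNA, had a log2 fold change of -0.19 ± 0.13 (adjusted p = 0.227, 95% interval -0.52 to 0.14). The FPKM ratio of Xpo1 to Xpo7 was 4.09 ± 0.202 in brains and 13.1 ± 2.01 in tumours (SD), with tumour 4 the lowest tumour at 9.93.

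Of the 4 Ran cycle genes 3 rose (75%) and 1 fell (25%), against 37.1% and 33.9% of all genes tested. Rcc1, the chromatin-bound exchange factor that loads Ran with GTP in the nucleus, read 11.7, 10.1 and 8.18 CPM in the brains and 49.5, 76.7, 56.2, 31.1 and 66.3 CPM in the tumours. Tumour 2 was the highest and tumour 4 the lowest, and the groups were far apart. The log2 fold change was 2.49 ± 0.31 (adjusted p = 0.000126). Ranbp1, the cytoplasmic cofactor of GTP hydrolysis, whose promoter holds an E2F word, read 38.9, 39.8 and 45.8 CPM in the brains and 122, 177, 107, 87.6 and 145 CPM in the tumours. All tumours were far above the highest brain, tumour 2 the most. The fitted log2 change was 1.62 ± 0.24 (adjusted p = 0.000309). Ran itself read 87.6, 93.5 and 84.7 CPM in the brains and 141, 154, 153, 143 and 163 CPM in the tumours. It was the evenest of the 4 across tumours, and tumour 4 was not the lowest. In log2 units the difference was 0.77 ± 0.11 (adjusted p = 0.000297).

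Rangap1, the GTPase-activating protein kept outside the nucleus, read 295, 269.8 and 310.1 CPM in the brains and 168, 244, 204, 145 and 174 CPM in the tumours. Every tumour was below every brain, tumour 2 the nearest. Its log2 fold change was -0.64 ± 0.18 (adjusted p = 0.00981). On the FPKM scale Rangap1 was the highest member in brains, at 100.3 ± 6.96, and its mean ranked 11th in tumours, at 64.0 ± 14.3. The mean of Ranbp1 in tumours, at 185 ± 52.6 FPKM, was second only to that of Sec13. The FPKM ratio of Rcc1 to Rangap1 was 0.0522, 0.0494 and 0.0349 in the brains and 0.387, 0.413, 0.361, 0.283 and 0.501 in the tumours. All 5 tumours were thus several times above the brains.

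Other genes of nuclear transport outside the chosen symbols were taken from a list of 22, of which 21 were tested. In this list 11 rose (52.4%, against 37.1% of all genes tested), 5 fell (23.8%, against 33.9%) and 5 did not pass. The median log2 fold change was 0.30, against 0.06 for all genes. The largest rises were those of Nxt1 and Alyref, which serve messenger RNA export. Nxt1 read 7.19 ± 0.697 CPM in brains and 30.7 ± 8.59 CPM in tumours (SD), a log2 fold change of 2.09 ± 0.27 (adjusted p = 0.000161). Alyref, an adaptor of the export complex, read 26.1 ± 0.0408 CPM in brains and 109.5 ± 21.7 CPM in tumours (SD), a log2 fold change of 2.07 ± 0.19 (adjusted p = 2.34e-05). The largest falls were those of Nxt2, a paralog of Nxt1 (-1.04 ± 0.33, adjusted p = 0.02, up to 0.061 over the alternatives), and Nutf2, the import factor of Ran (-0.85 ± 0.22, adjusted p = 0.00802). The outer ring recruiter Ahctf1 rose by 1.09 ± 0.35 (adjusted p = 0.0207), and the pore protein Aaas by 2.06 ± 0.23 (adjusted p = 6.06e-05). For Ahctf1 the groups overlapped: tumour 4, at 139.4 CPM, lay below all 3 brains (146.3 to 178 CPM). Neither gene was among the 2 largest rises of the list. The count of 5 that fell became 3 without brain 2 or without brain 3.

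Of the 54 tested members, 3 (Kpna2, Nup62cl and Nup210l) passed the filter on low counts through the tumours alone and could not have been called lower. Without them 32 of 51 rose and 11 fell, with a median log2 fold change of 0.83.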

How the data were processed

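RNA from 3 normal brains and 5 glioblastomas was sequenced as TruSeq libraries, per the labels' protocols. The submitters' processing notes name STAR 2.3.0e, Cuffdiff 2.1.1 and mm9; no strand setting is given in the sources used here, so overlapping antisense genes cannot be told apart. The deposited table holds, per RefSeq accession and library, estimated counts of fragments and FPKM values made by the authors. Accessions were matched to symbols with RefSeq GRCm38 names (30474 of 30967) and GENCODE (178), summed per gene and rounded. 9 members have several accessions, and fragments were split between genes or transcripts to non-whole sums for 3 (tolerance 0.01).

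edgeR 4.0.16 (R 4.3.3) was run with TMM factors, filterByExpr and robust quasi-likelihood tests over 14641 genes, with Benjamini-Hochberg adjustment over all of them. CPM values use TMM-scaled library sizes, SEs are the log2 fold change divided by the root of F, and FPKM values are used as deposited for comparing genes. The 95% intervals of log2 fold changes were made from these SEs with a t quantile on 6 degrees of freedom. The edgeR tests use other degrees of freedom, so an interval and its p-value need not match. Promoters came from RefSeq GRCm38.p6, whose coordinates are used for no other value. Alternatives were other scalings and filters, DESeq2 1.42.0, limma 3.58.1 on log2 FPKM, and leaving out libraries. Members and lists were chosen with earlier results of these data known. In each role, the called members with the 2 largest rises and falls and the member with the highest mean FPKM are given in every library; others given in full (Nup133, Nup214, Ranbp2, Kpna3, Ipo8 and Ran) were chosen after their values were seen. No 2 libraries were alike within counting error (the lowest chi-square was 5.11 per degree of freedom). Depth ranged from 5490351 to 15564280 fragments, and intervals on low counts cover counting error only.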

Additional observations from a re-analysis of the deposited data

How the results depend on the processing

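Of the 46 called members, 41 kept their call and direction in each of the 17 alternatives that tested them (Nup62cl was tested in 16), 5 (Nup133, Nup153, Kpna6, Ipo5 and Ipo8) lost the call in at least 1, and none changed direction. Of the 8 that did not pass, 4 (Ranbp2, Tpr, Ipo4 and Tnpo3) passed in at least 1. The number of members that rose ranged from 32 to 38 and that of members that fell from 9 to 11, and leaving out single libraries gave 32 to 38 for the former. The share of all genes called higher moved too, from 37.1% in the main analysis. It was 40.2% with library size alone and 39.6% without tumour 4, the settings in which 38 members rose. It was 32.3% to 32.5% without any 1 brain, where 32 members rose, and 29.9% with no filter, where 35 rose. For the list of other transport genes, the 5 that fell became 3 with library size alone and 3 to 5 with single libraries left out. The log2 fold change of Kpna3 became 0.044 with upper quartile factors, 0.059 with library size alone, and -0.122 to 0.001 with single libraries left out (0.001 without tumour 4). That of Ipo9 became 0.112 with upper quartile factors, 0.128 with library size alone, 0.021 with no filter, -0.04 to 0.051 with single libraries left out (above 0 without brain 1, brain 2, tumour 1 or tumour 4), and 0.058 without both brain 1 and tumour 4. The cause was not tested. Upper quartile factors moved the median log2 fold change of all genes from 0.06 to 0.18, and library size alone to 0.199. Depth limits Kpna7, Nup62cl, Nup210l and Kpna2, with 0 to 30 brain fragments. No paired analysis was possible because the replicate numbers only name libraries within a group, and nothing ties a brain to a tumour.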

Other observations

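The authors' division of fragments between the transcripts of 1 gene differed by group for Rcc1. One of its accessions, the lesser in every library, held 0.0145%, 0.0429% and 0.05% of the gene's fragments in brains 1 to 3, and 30.1%, 21.6%, 18.3%, 13.2% and 32.5% in tumours 1 to 5. All tumours were above all brains. For Nup35 the division moved between nearly 0 and nearly all of the fragments from library to library within both groups, so the division between transcripts is unstable in these data, and it was not tested for Rcc1.

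The RNA helicases Ddx19a and Ddx19b, paralogs that act on messenger RNA at the cytoplasmic face of the pore, changed in opposite directions, as Tnpo1 and Tnpo2 did. Ddx19a rose by a log2 value of 1.22 ± 0.25 (adjusted p = 0.00211, edgeR) and Ddx19b had a log2 fold change of -0.61 ± 0.14 (adjusted p = 0.00318). Their FPKM ratio was 0.425 ± 0.0741 in brains and 1.55 ± 0.564 in tumours (SD). These genes were singled out after their values were seen.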
